A study of Mus musculus with 4 samples.

Results

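Lung tumours of Nrf2 -/- and of Nrf2 +/+ Balb/c mice were compared for 9 genes of the secretory airway epithelium: Scgb1a1, Scgb3a1, Scgb3a2, Bpifa1, Bpifb1, Muc5b, Reg3g, Lypd2 and Cbr2. They were taken by name from a deposited table of 35275 genes, and all 9 were in it. There were 2 libraries of knockout tumours (Nrf2 KO 1 and 2) and 2 of wild-type tumours (WT 1 and 2). Animals of both genotypes carried vinyl carbamate tumours: this carcinogen had been given at 16 mg/kg in 2 or 4 doses, and tumours were taken 40 to 44 weeks after it was started. Each library was made from RNA of 3 to 4 pooled tumours, and no label ties a library to its number of doses, weeks or tumours, so these cannot be told apart from genotype. The mouse age is not labelled, and there was no library of tumour-free lung among those analysed here.

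Club cells are the main secretory cells of the mouse bronchioles. They release secretoglobins and BPI fold proteins into the airway lining fluid and carry enzymes that metabolise foreign chemicals. Goblet cells, which make gel-forming mucins, are a related secretory type that is scarce in the healthy mouse lung and can arise from club cells under type 2 inflammation. Nfe2l2 is the gene of NRF2, which switches on antioxidant and detoxification genes.

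The values are FPKM (fragments per kilobase of gene length, scaled to the reads of the library). They are adjusted for gene length and library size, but not for other differences between libraries. Whole reads could be recovered from them, and library totals were 17975646 and 16892588 reads for Nrf2 KO 1 and 2, against 21659572 and 21220307 reads for WT 1 and 2. Nfe2l2 had 3.66 and 2.96 FPKM in the knockout libraries and 96.3 and 87.9 FPKM in the wild-type libraries, as the genotype labels have it. Markers of alveolar type 2 cells, summed over 9 genes, were 120493 and 105336 FPKM for the knockout libraries and 108869 and 109409 FPKM for the wild-type ones. The 5 club cell markers (Scgb1a1, Cyp2f2, Scgb3a2, Scgb3a1 and Bpifa1) were all above 1 FPKM in every library. Their sum was 2162 and 3339 FPKM in knockout tumours, against 1823 and 796 FPKM in wild-type tumours, with Scgb1a1 making up most of it. All of these markers but Cyp2f2 are among the 9 genes, so the sum is no separate measure of club cells. In such bulk RNA, fewer cells of a type and less RNA per cell cannot be told apart.

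Of the 9 genes, 6 had knockout values that all exceeded the wild-type values (Scgb1a1, Scgb3a1, Scgb3a2, Bpifa1, Cbr2 and, on 3 reads, Reg3g). The gel-forming mucin Muc5b lay the other way, and Bpifb1 and Lypd2 overlapped. Of the 6 that were tested, 5 lay above in this way and 1 below, beside 22.7% and 25.4% of all 13147 genes tested. Only 6 could be tested, and 0 of them were called by limma at an adjusted p under 0.05. Of all tested genes 0.114% were called, 0.0761% as higher and 0.038% as lower in knockout tumours. Limma-voom on the recovered reads also called 0 of the 6, and 0.0609% of all genes. At an unadjusted p under 0.05, limma gave 5 of the 6 higher and 1 lower in knockout tumours, beside 8.36% higher and 7.01% lower among all genes. Limma-voom gave 6 at that threshold. Its share over all genes was not computed, here or for the lists below. Each of the 6 had at least 1 FPKM in all 4 libraries, and their median log2 fold change was 1.09, beside -0.00 over all genes tested. That median was 0.59 without WT 2 and 1.63 without WT 1. Bpifb1, Lypd2 and Reg3g did not reach 1 FPKM in 2 libraries and have no test. In this design an exact permutation test, two-sided, cannot go below p = 0.333, so the p-values are limma's.

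**Figure D1:**
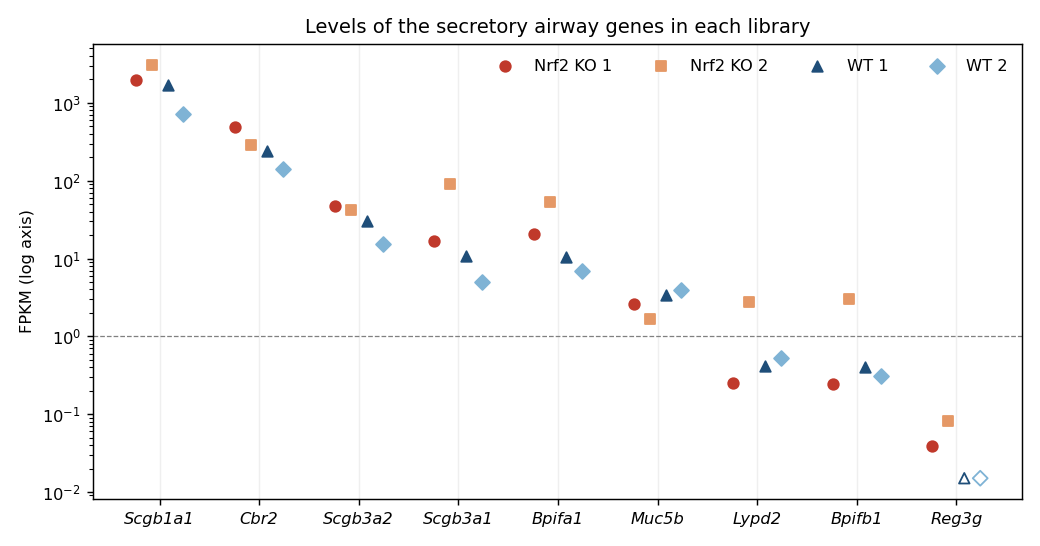
FPKM of the 9 genes (log axis) in each library, ordered by mean level, with 1 symbol per library and the dashed line at 1 FPKM. Scgb1a1 stood at 723 to 3099 FPKM and Reg3g at 0 to 0.0828 FPKM; open symbols at the bottom mark libraries in which Reg3g was listed at 0.

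Scgb1a1 encodes the club cell secretory protein, also called uteroglobin, the defining product of these cells (chromosome 19, 9083636 to 9087958, minus strand, mm10). It had 1996 and 3099 FPKM in Nrf2 KO 1 and 2, against 1709 and 723 FPKM in WT 1 and 2. The groups did not overlap, but Nrf2 KO 1 and WT 1 lay closer to each other than either did to its own replicate. Its reads numbered 17078 and 24920 in knockout tumours and 17623 and 7301 in wild-type tumours, so counting error is small beside these gaps. The means were 2548 ± 780 FPKM for knockout and 1216 ± 698 FPKM for wild-type tumours (SD, n = 2 each), a ratio of 2.09. On the log2(FPKM + 1) scale, used for all fold changes here, the log2 fold change was 1.16 ± 0.43 (SE; limma adjusted p = 0.294). Without WT 2 the log2 fold change was 0.54, and without WT 1 it was 1.78. By level, Scgb1a1 ranked 26 and 18 among all genes in the knockout libraries and 22 and 113 in the wild-type libraries.

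Scgb3a2, a secretoglobin of the bronchioles with anti-inflammatory activity in mice (chromosome 18, 43764289 to 43767399), had 46.9 and 41.6 FPKM in Nrf2 KO 1 and 2 against 30.6 and 15.3 FPKM in WT 1 and 2. The knockout libraries were close to each other here, at 44.3 ± 3.73 FPKM, while the wild-type libraries spread more, at 22.9 ± 10.8 FPKM (SD, n = 2 each). The log2 fold change was 1.00 ± 0.29 (SE; limma adjusted p = 0.232) and 0.52 without WT 2.

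Scgb3a1, a secretoglobin found in airway epithelium from the trachea downwards (chromosome 11, 49663610 to 49665118), showed another pattern. It had 16.7 and 91.2 FPKM in Nrf2 KO 1 and 2 against 10.7 and 5.01 FPKM in WT 1 and 2. Nrf2 KO 2 stood apart: its level was 5.46 times that of Nrf2 KO 1 (95% exact counting interval 4.61 to 6.49), while Nrf2 KO 1 was closer to WT 1 than to its own replicate. The means were 53.9 ± 52.7 FPKM for knockout and 7.83 ± 3.99 FPKM for wild-type tumours (SD, n = 2 each), so the SD of the knockout libraries was nearly as large as their mean. The log2 fold change was 2.27 ± 0.74 (SE; limma adjusted p = 0.256), 1.08 without Nrf2 KO 2 and 3.46 without Nrf2 KO 1. A fit without either of these has 1 knockout library, which is assumed to vary like the wild-type pair, with the prior over all genes. Only its effect size is therefore given. Among the other secretoglobins looked up, Scgb1c1 had 5.62 and 6.64 FPKM in knockout tumours against 3.55 and 3.11 FPKM in wild-type tumours (log2 fold change 0.72 ± 0.15 SE; limma adjusted p = 0.140). Scgb2a2 and Scgb2b2 were listed at 0 in all 4 libraries, and further members of the family were not looked up.

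Bpifa1 and Bpifb1 lie near each other on chromosome 2 (154142880 to 154149219 and 154190818 to 154220369) and encode secreted BPI fold proteins, known as the short and long PLUNC proteins, that act at the airway surface against bacteria. Bpifa1 had 20.9 and 53.2 FPKM in Nrf2 KO 1 and 2 against 10.3 and 6.92 FPKM in WT 1 and 2. The groups did not overlap, and Nrf2 KO 2 was 2.55 times as high as Nrf2 KO 1 (95% exact counting interval 2.23 to 2.92). Its means were 37.0 ± 22.9 FPKM for knockout and 8.62 ± 2.40 FPKM for wild-type tumours (SD, n = 2 each), and its log2 fold change of 1.86 ± 0.41 (SE) came with the lowest adjusted p of the 6 (limma adjusted p = 0.162). Without Nrf2 KO 1 it was 2.52, and without Nrf2 KO 2 it was 1.21. Both fits have 1 knockout library, assumed to vary like the wild-type pair, so only effect sizes are given.

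Bpifb1 was lower by far, at 0.243 and 3.02 FPKM in Nrf2 KO 1 and 2 against 0.403 and 0.308 FPKM in WT 1 and 2. That is 10 and 117 reads in the knockout libraries and 20 and 15 in the wild-type libraries. Only Nrf2 KO 2 was high, at 12.5 times Nrf2 KO 1 (95% exact counting interval 6.53 to 26.6), and Nrf2 KO 1 was the lowest of the 4. The difference of the means on the log2(FPKM + 1) scale was 0.72, and -0.12 without Nrf2 KO 2, with no test. Lypd2, a member of the Ly6 family of small membrane-anchored proteins (chromosome 15, 74732247 to 74734329), followed the same order of knockout libraries. It had 0.251 and 2.80 FPKM in Nrf2 KO 1 and 2 (2 and 21 reads) against 0.416 and 0.531 FPKM in WT 1 and 2 (4 and 5 reads). The ratio of Nrf2 KO 2 to Nrf2 KO 1 was 11.2, with a wide exact counting interval of 2.73 to 98.3 (95%). Its log2(FPKM + 1) difference of 0.57 was -0.24 without Nrf2 KO 2.

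**Figure D2:**
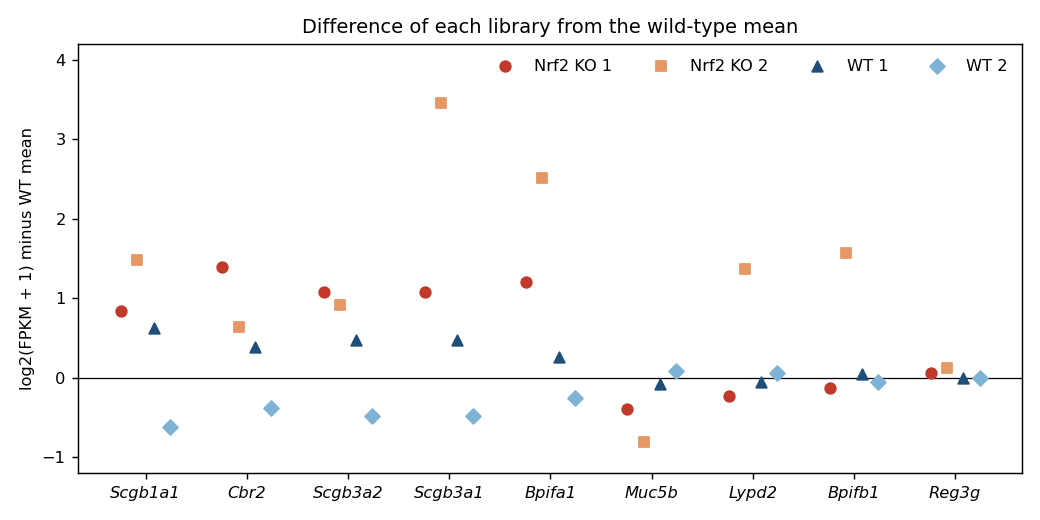
Difference of each library from the wild-type mean on the log2(FPKM + 1) scale, for the 9 genes in order of mean level; zero is the mean of WT 1 and WT 2. Nrf2 KO 2 lies well above Nrf2 KO 1 for Scgb3a1, Bpifa1, Lypd2 and Bpifb1, and below it for Cbr2, Scgb3a2 and Muc5b.

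Muc5b encodes the gel-forming mucin that mouse airways make at rest and need for mucociliary clearance (chromosome 7, 141839070 to 141873084). It had 2.57 and 1.69 FPKM in Nrf2 KO 1 and 2 against 3.43 and 3.99 FPKM in WT 1 and 2, and was lowest in Nrf2 KO 2, the library in which Scgb1a1 was highest. Its means were 2.13 ± 0.619 FPKM for knockout and 3.71 ± 0.393 FPKM for wild-type tumours (SD, n = 2 each), and the log2 fold change was -0.60 ± 0.19 (SE; limma adjusted p = 0.246). Muc5ac, its inducible neighbour on the chromosome and the mucin of goblet cells, had 1.19 and 0.833 FPKM in knockout tumours against 2.31 and 1.65 FPKM in wild-type tumours (log2 fold change -0.57 ± 0.19 SE; limma adjusted p = 0.266). Mucin genes contain long repeats, and how reads shared between copies were counted is not given in the sources used here.

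Cbr2 encodes a carbonyl reductase of lung that uses NADPH and is found in club and alveolar type 2 cells of mice (chromosome 11, 120729489 to 120732114, minus strand). It had 485 and 288 FPKM in Nrf2 KO 1 and 2 against 241 and 141 FPKM in WT 1 and 2. Both knockout libraries were above both wild-type libraries, with Nrf2 KO 1 the higher of the pair. The means were 387 ± 140 FPKM for knockout and 191 ± 71.1 FPKM for wild-type tumours (SD, n = 2 each), and the log2 fold change was 1.02 ± 0.33 (SE; limma adjusted p = 0.253). It was 0.63 without WT 2 and 0.64 without Nrf2 KO 1. Of its relatives, the dicarbonyl and xylulose reductase Dcxr had 231 and 215 FPKM in knockout tumours against 234 and 261 FPKM in wild-type tumours (limma adjusted p = 0.602). Cbr3 had 16.9 and 18.5 FPKM in knockout tumours against 21.5 and 23.0 FPKM in wild-type tumours (log2 fold change -0.31 ± 0.11 SE; limma adjusted p = 0.276). Cbr1, with 43.7 and 50.6 FPKM in knockout and 46.8 and 50.6 FPKM in wild-type tumours, overlapped between the groups, as did Cbr4.

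The start regions of Scgb3a1, Bpifa1 and Bpifb1, which were highest in Nrf2 KO 2, are shown here beside that of Cbr2, which was highest in Nrf2 KO 1. They run from 250 bases before to 50 after the start site, are from RefSeq on GRCm38.p6 (the assembly of mm10), and read 5′ to 3′ on the gene's own strand. Of the 9 genes, 5 had an entry; Scgb1a1, Scgb3a2, Muc5b and Lypd2 had none. Capitals mark matches, on either strand, to the letters TGACNNNGC (core of the antioxidant response element that NRF2 binds), TGTTTAC or TGTTTGC (FOXA factors), CACTTGA or CACTCAA (NKX2-1) and TTGCNNAA (C/EBP factors).
Scgb3a1, chr11:49663345-49663644, plus strand: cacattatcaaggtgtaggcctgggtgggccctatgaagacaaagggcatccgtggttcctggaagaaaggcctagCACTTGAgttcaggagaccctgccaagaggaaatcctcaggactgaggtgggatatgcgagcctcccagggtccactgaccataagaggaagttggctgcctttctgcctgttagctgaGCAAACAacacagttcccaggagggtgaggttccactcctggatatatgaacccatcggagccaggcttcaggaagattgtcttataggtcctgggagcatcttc
Bpifa1, chr2:154142630-154142929, plus strand: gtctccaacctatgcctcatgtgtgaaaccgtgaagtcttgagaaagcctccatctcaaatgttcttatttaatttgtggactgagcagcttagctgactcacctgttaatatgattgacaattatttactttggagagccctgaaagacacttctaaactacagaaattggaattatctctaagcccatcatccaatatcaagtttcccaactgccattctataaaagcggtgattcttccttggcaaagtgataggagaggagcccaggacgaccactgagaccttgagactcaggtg
Bpifb1, chr2:154190568-154190867, plus strand: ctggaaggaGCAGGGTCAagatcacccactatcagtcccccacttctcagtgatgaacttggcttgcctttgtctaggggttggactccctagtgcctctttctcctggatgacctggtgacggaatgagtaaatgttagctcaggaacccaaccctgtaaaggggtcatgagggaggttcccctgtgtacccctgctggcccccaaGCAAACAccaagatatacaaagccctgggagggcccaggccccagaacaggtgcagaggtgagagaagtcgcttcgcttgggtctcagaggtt
Cbr2, chr11:120731972-120732271, minus strand: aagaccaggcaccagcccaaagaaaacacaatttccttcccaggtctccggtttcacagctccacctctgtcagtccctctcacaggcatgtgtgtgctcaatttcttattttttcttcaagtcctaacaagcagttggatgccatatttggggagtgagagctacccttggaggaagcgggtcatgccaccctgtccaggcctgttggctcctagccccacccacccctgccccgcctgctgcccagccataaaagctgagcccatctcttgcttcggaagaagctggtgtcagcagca

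Scgb3a1 held a FOXA match that begins 55 bases before the start site and an NKX2-1 match that begins 174 bases before it. Bpifb1 held a FOXA match that begins 43 bases before its start site and an antioxidant response element core that begins 241 bases before it. No marked match overlapped another. The windows of Bpifa1 and Cbr2 held none of these letters, nor did that of Reg3g or a further Bpifb1 start. Among all 32851 windows of the same length, 12.4% held the antioxidant response element core, 8.48% a FOXA match, 6.22% an NKX2-1 match and 10.8% a C/EBP match. A match is a description of the letters and not a binding site.

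Reg3g, an antibacterial lectin that airway epithelium makes on infection in mice (chromosome 6, 78466269 to 78468872, minus strand), had 1 and 2 reads in Nrf2 KO 1 and 2 and 0 and 0 reads in WT 1 and 2. Its 0.0389 and 0.0828 FPKM in the knockout libraries are below the 0.0969 and 0.0989 FPKM that a count of 0 allows in the wild-type libraries (3 reads each). A difference was not detectable at this depth. Reads carry no molecular identifiers, so these limits and intervals cover counting error only. Of the 7 genes of the Reg family, 5 were listed at 0 in every library (Reg1, Reg2, Reg3a, Reg3b and Reg3d). Reg4 had 0 and 0 reads in Nrf2 KO 1 and 2 and 0 and 7 reads in WT 1 and 2.

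**Figure D3:**
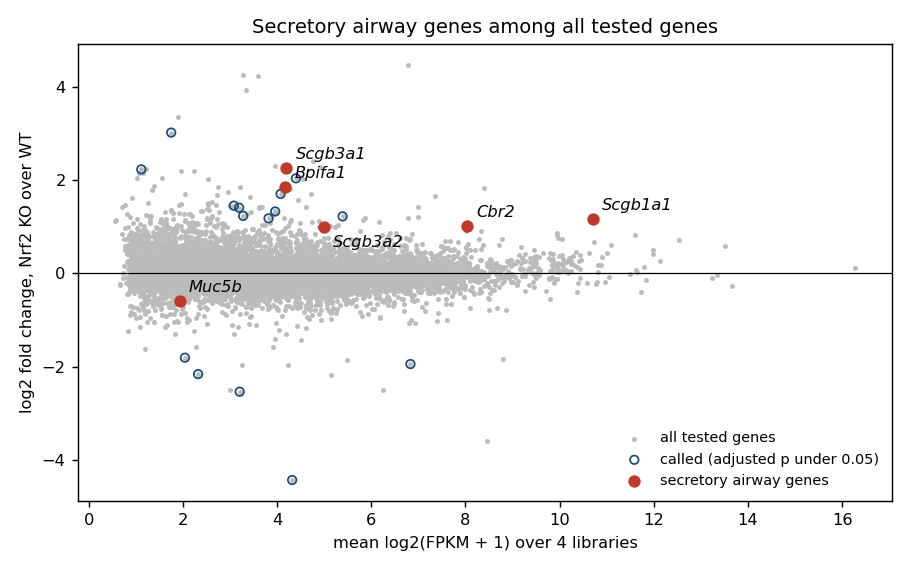
Log2 fold change (Nrf2 KO over WT, log2(FPKM + 1) scale) against mean level for all 13147 tested genes in grey, the 15 called genes as open circles and the 6 tested secretory airway genes in red. The 6 lie between -0.60 (Muc5b) and 2.27 (Scgb3a1), and none is among the called genes.

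The members did not keep a fixed ratio to each other. As a percentage of the Scgb1a1 level of the same library, Scgb3a1 was at 0.837% and 2.94% in Nrf2 KO 1 and 2 and at 0.623% and 0.693% in WT 1 and 2. Bpifa1 was at 1.05% and 1.72% of Scgb1a1 in the knockout libraries and at 0.604% and 0.958% in the wild-type libraries. Cbr2 ran in the other direction between the knockout libraries, at 24.3% and 9.29%, against 14.1% and 19.5% in the wild-type libraries. Scgb3a2 did so as well, at 2.35% and 1.34% in Nrf2 KO 1 and 2 against 1.79% and 2.11% in WT 1 and 2. Relative to Scgb1a1, Cbr2 and Scgb3a2 overlapped between the genotypes, while Scgb3a1 and Bpifa1 did not. For both of the latter the nearest libraries, Nrf2 KO 1 and WT 2, lay close to each other. These had 164 and 58 reads for Scgb3a1 and 304 and 119 reads for Bpifa1. No counting interval was computed for the percentages, so these separations may lie within counting error. Muc5b was at 0.129% and 0.0546% of Scgb1a1 in Nrf2 KO 1 and 2 against 0.201% and 0.552% in WT 1 and 2, with no overlap. Scgb1a1 itself lay above in the knockout libraries, so a gene with the same level in every library would also separate on this measure. The share of all genes that did so was not computed.

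**Figure D4:**
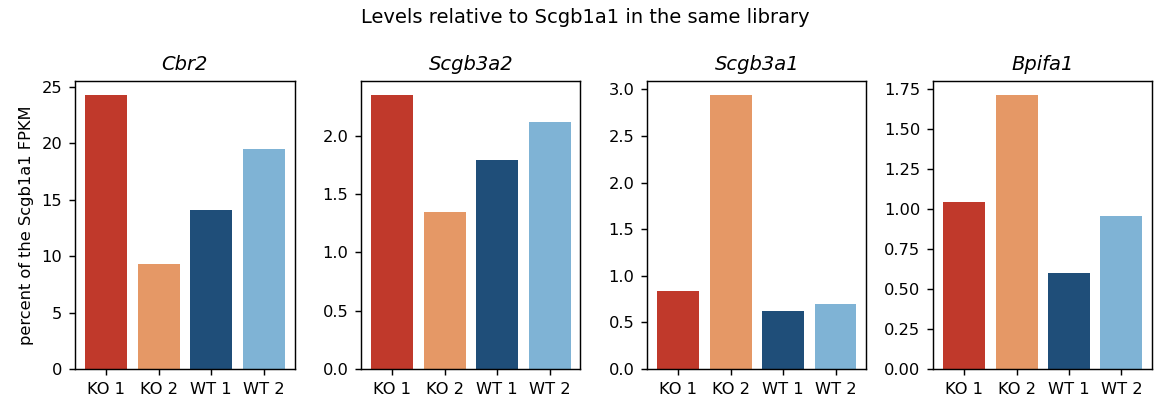
Levels of 4 genes as a percentage of the Scgb1a1 FPKM in the same library, 1 bar per library with each axis starting at 0. Scgb3a1 and Bpifa1 are highest in Nrf2 KO 2 (2.94% and 1.72%), where Cbr2 and Scgb3a2 are lowest (9.29% and 1.34%).

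Other genes of club cells lay on both sides. Of 28 such genes listed, 21 were tested and 0 were called by limma or by limma-voom. At an unadjusted p under 0.05, limma gave 5 higher and 4 lower, beside 8.36% and 7.01% of all genes tested. Limma-voom gave 9 in either direction. Both knockout libraries were above both wild-type libraries for 6 of the 21 and below for 6, beside 22.7% and 25.4% of all genes tested. The median log2 fold change was 0.31, and 0.01 without Nrf2 KO 2 and 0.10 without WT 2. Cyp2f2, the club cell cytochrome P450 that is a standard marker beside Scgb1a1, had 81.8 and 54.2 FPKM in knockout tumours against 61.8 and 46.4 FPKM in wild-type tumours, so that the groups overlapped (log2 fold change 0.31 ± 0.23 SE; limma adjusted p = 0.554).

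The 4 most abundant genes of that list lay lower in knockout tumours or overlapped, while the 6 that lay above were less abundant. Selenbp1, a selenium-binding protein, had 353 and 284 FPKM in Nrf2 KO 1 and 2 against 440 and 631 FPKM in WT 1 and 2 (log2 fold change -0.73 ± 0.21 SE; limma adjusted p = 0.223). Fmo2, a flavin-containing monooxygenase, had 268 and 232 FPKM in Nrf2 KO 1 and 2 against 342 and 318 FPKM in WT 1 and 2 (limma adjusted p = 0.258). Por, the reductase that supplies electrons to cytochrome P450 enzymes, had 249 and 203 FPKM in knockout tumours against 268 and 298 FPKM in wild-type tumours (limma adjusted p = 0.360). Wfdc2, a secreted protease inhibitor-like protein, had 1862 and 1394 FPKM in knockout tumours, overlapping the 1756 and 2024 FPKM of wild-type tumours. Pigr, the receptor that carries IgA across epithelium and was picked out after its values were seen, had 22.8 and 185 FPKM in Nrf2 KO 1 and 2 against 13.4 and 11.9 FPKM in WT 1 and 2. Cyp4b1, picked out in the same way, had 25.6 and 30.9 FPKM in Nrf2 KO 1 and 2 against 16.2 and 9.01 FPKM in WT 1 and 2. Its log2 fold change was 1.15 ± 0.26 (SE; limma adjusted p = 0.162). Cldn10, Hp, Nupr1 and Sec14l3 also lay above, while 6 of the 21 lay below.

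Of 19 listed genes of goblet cells and mucus, 18 were in the table, 10 were tested and 0 were called by limma or by limma-voom. Limma's unadjusted p was under 0.05 for 2 higher and 2 lower, beside 8.36% and 7.01% of all genes tested, and limma-voom's for 4. Both knockout libraries were above for 2 and below for 6 of the 10, beside 22.7% and 25.4% of all genes tested. The median log2 fold change was -0.19. Among the abundant members, the membrane mucin Muc1 had 819 and 658 FPKM in knockout tumours against 939 and 974 FPKM in wild-type tumours (log2 fold change -0.38 ± 0.17 SE; limma adjusted p = 0.358). Another membrane mucin, Muc20, had 20.8 and 19.0 FPKM in knockout tumours against 24.1 and 21.7 FPKM in wild-type tumours (limma adjusted p = 0.462). Creb3l1, a transcription factor of secretory cells, had 62.4 and 75.4 FPKM in knockout tumours against 78.7 and 77.9 FPKM in wild-type tumours (limma adjusted p = 0.515). The anion exchanger Slc26a4 (pendrin) stood at 5.45 and 274 FPKM in Nrf2 KO 1 and 2 against 1.37 and 1.06 FPKM in WT 1 and 2. Its log2 fold change was 4.26 ± 1.55 (SE; limma adjusted p = 0.287), and the value rests on Nrf2 KO 2. Some goblet genes too low to be tested were also high in that library (picked out after their values were seen). Clca1, a secreted protein of goblet cells, had 1 and 733 reads in Nrf2 KO 1 and 2 and 0 and 0 reads in WT 1 and 2. The trefoil peptide Tff2 had 1 and 10 reads in Nrf2 KO 1 and 2 and 1 and 0 reads in WT 1 and 2.

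Among antimicrobial genes of the airway, 17 were listed, 9 were tested and 0 were called by limma or by limma-voom. Limma's unadjusted p was under 0.05 for 3, all higher, beside 8.36% of all genes tested, and limma-voom's for 4. Both knockout libraries were above both wild-type libraries for 6 of the 9 and below for 0, beside 22.7% and 25.4% of all genes tested. The median log2 fold change was 0.56, and 0.20 without Nrf2 KO 2. Lcn2, a protein that withholds iron from bacteria, had 1804 and 2530 FPKM in knockout tumours against 1471 and 1207 FPKM in wild-type tumours (log2 fold change 0.68 ± 0.24 SE; limma adjusted p = 0.270). Chil1, a chitinase-like protein, had 3687 and 5874 FPKM in knockout tumours against 3615 and 3383 FPKM in wild-type tumours (limma adjusted p = 0.553). Lyz2, a lysozyme, had 17198 and 11979 FPKM in knockout tumours against 9798 and 9247 FPKM in wild-type tumours (limma adjusted p = 0.483). Chil3, another chitinase-like protein, overlapped, at 487 and 1029 FPKM in knockout and 526 and 436 FPKM in wild-type tumours. Macrophages and alveolar type 2 cells also express Lyz2, and macrophages express Chil3, so that these levels are not those of secretory cells alone.

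The BPI fold family had 16 of 17 listed genes in the table, of which 4 were tested, Bpifa1 and 3 others. Of these, 0 were called by limma or by limma-voom, with an unadjusted p under 0.05 for 2 in each. For limma the 2 were higher, beside 8.36% of all genes tested. Pltp, a phospholipid transfer protein, had 26.6 and 33.4 FPKM in knockout tumours against 21.8 and 11.7 FPKM in wild-type tumours (log2 fold change 0.86 ± 0.28 SE; limma adjusted p = 0.253). Lbp, which binds lipopolysaccharide, had 254 and 264 FPKM in knockout tumours against 287 and 272 FPKM in wild-type tumours (limma adjusted p = 0.698). Bpifb5 overlapped between the groups, at 1.26 and 1.55 FPKM in knockout and 1.24 and 2.91 FPKM in wild-type tumours. Bpifb3 had at most 3 reads in a library.

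Of 26 listed transcription factors and Notch pathway genes that set airway secretory fate, 25 were tested and 0 were called by limma or by limma-voom. Limma's unadjusted p was under 0.05 for 1 higher and 6 lower, beside 8.36% and 7.01% of all genes tested, and limma-voom's for 8. Both knockout libraries were above for 2 and below for 11 of the 25, beside 22.7% and 25.4% of all genes tested, and the median log2 fold change was -0.13. The 3 largest negative log2 fold changes, picked out after their values were seen, were -0.62 for the receptor Notch1, -0.58 for the receptor Notch2 and -0.55 for the ligand Jag1. Their limma adjusted p-values were 0.162, 0.219 and 0.136. The largest positive one, picked out in the same way, was larger in size, at 0.98 ± 0.32 (SE) for Sox2 (limma adjusted p = 0.259). Sox2 had 2.89 and 1.09 FPKM in Nrf2 KO 1 and 2 against 0.673 and 0.252 FPKM in WT 1 and 2. Nkx2-1, the lung lineage factor that activates secretoglobin genes, had 214 and 198 FPKM in knockout tumours, overlapping the 201 and 238 FPKM of wild-type tumours. Cebpa, a factor of differentiated club and alveolar cells, likewise had 538 and 489 FPKM in knockout tumours against 505 and 580 FPKM in wild-type tumours. Xbp1, a factor of secretory and plasma cells, had 295 and 564 FPKM in Nrf2 KO 1 and 2 against 260 and 276 FPKM in WT 1 and 2 (limma adjusted p = 0.391). Stat6, which carries the interleukin-4 and interleukin-13 signal, had 148 and 140 FPKM in knockout tumours against 158 and 157 FPKM in wild-type tumours (limma adjusted p = 0.604).

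Markers of some other cell types differed between the libraries along with these genes, and those of others did not. Ciliated cell markers, 10 genes of which 5 were tested, summed to 13.4 and 20.98 FPKM in Nrf2 KO 1 and 2 against 13.7 and 9.82 FPKM in WT 1 and 2. Like Scgb1a1 they were highest in Nrf2 KO 2 and lowest in WT 2. Endothelial markers (5 genes) summed to 92.4 and 151 FPKM in Nrf2 KO 1 and 2 against 119 and 61.2 FPKM in WT 1 and 2. Smooth muscle markers (6 genes) summed to 68.2 and 93.7 FPKM in knockout tumours against 58.2 and 49.3 FPKM in wild-type tumours, and leukocyte markers (7 genes) to 112 and 108 FPKM in knockout tumours against 53.0 and 47.8 FPKM in wild-type tumours. Limma called 2 of the 7 leukocyte markers as higher, the neutrophil genes S100a8 and S100a9, beside 0.0761% of all genes tested. Limma-voom called 1 of the 7, beside 0.0609% of all genes in either direction. S100a8 and S100a9 made up most of the knockout leukocyte sums. S100a8 had 29.5 and 29.4 FPKM in knockout tumours against 8.36 and 8.29 FPKM in wild-type tumours. S100a9 had 43.6 and 40.3 FPKM in knockout tumours against 7.78 and 11.3 FPKM in wild-type tumours. Both knockout libraries were above both wild-type libraries for 5 of the 7, beside 22.7% of all genes tested, while Ptprc and Adgre1 overlapped. The endothelial, smooth muscle, leukocyte and ciliated sums were each lowest in WT 2. Basal cell markers (5 genes) summed to 0.426 and 0.645 FPKM in knockout tumours against 0.313 and 0.212 FPKM in wild-type tumours. Those of submucosal glands (6 genes) reached at most 0.246 FPKM, with Lpo and Prr27 listed at 0. Neuroendocrine markers (6 genes) summed to 1.91 and 2.31 FPKM in knockout tumours against 0.846 and 0.572 FPKM in wild-type tumours, most of it Syp, and Resp18 was listed at 0. Pan-epithelial markers (8 genes) summed to 1126 and 1144 FPKM in knockout tumours against 1236 and 1332 FPKM in wild-type tumours, and alveolar type 1 markers (8 genes) to 1229 and 1135 FPKM in knockout tumours against 1234 and 1282 FPKM in wild-type tumours. The part of these cell types in the secretory gene values was not tested. Scaled to the pan-epithelial genes of each library, the log2 fold changes of the 5 genes that lay above were 1.18 to 2.45, and that of Muc5b was -0.42.

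**Figure D5:**
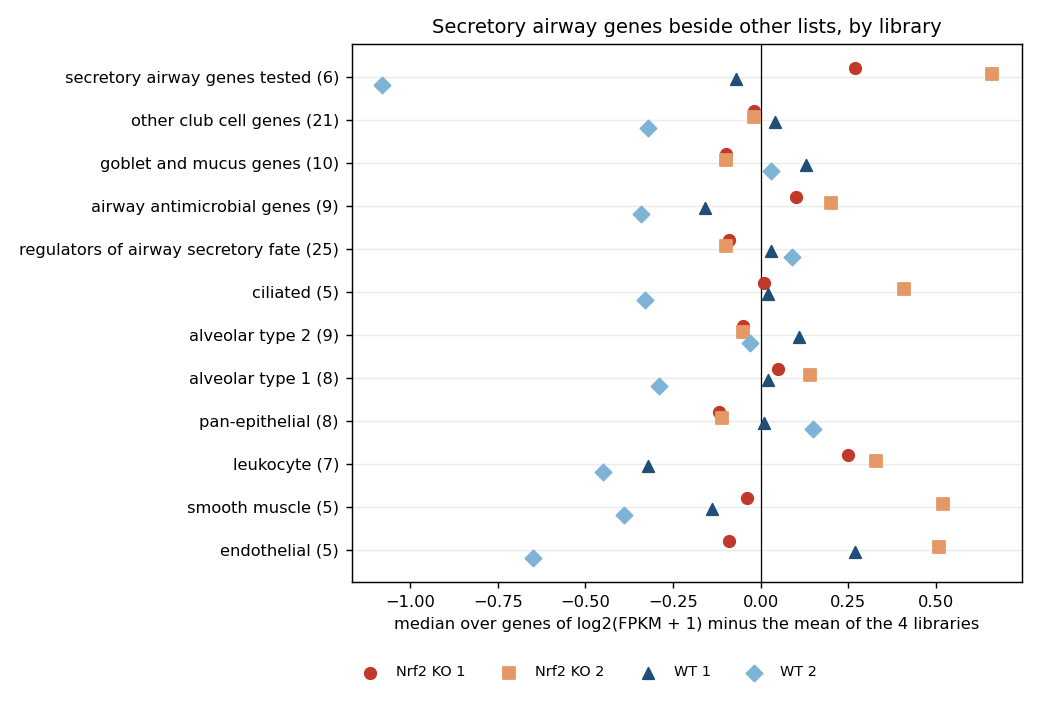
Median over the tested genes of each list (number in brackets) of log2(FPKM + 1) minus the mean of the 4 libraries, with 1 symbol per library. The secretory airway genes range from -1.08 in WT 2 to 0.66 in Nrf2 KO 2, while the other club cell genes lie between -0.32 and 0.04 and the alveolar type 2 markers between -0.05 and 0.11.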

How the data were processed

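RNA sequencing of lung tumours gave a deposited table with 1 FPKM value per gene and library, for 2 knockout and 2 wild-type libraries. FPKM was recognised from the values the authors deposited: each is a whole read number divided by a gene length and a library factor. Per the submitters' processing notes, the authors worked on mm10 with TopHat2 and DESeq2, whose versions and roles are not stated. Counter, annotation, filters and strand use: not given in the sources used here. Symbols are from a gene name table and coordinates from GENCODE on GRCm38, and 34490 of 35275 identifiers matched.

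Reads were recovered for 21599 of 21601 genes above 0, through a search for the gene length that makes all 4 values whole, within 0.0002 reads plus 2e-08 per read. The length was an annotated one for 5488 genes and otherwise the smallest that fitted, so reads could be undercounted where no annotated length was found. A tested gene had a median of 451 to 574 reads per library.

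The genotypes were set against each other on log2(FPKM + 1) by limma 3.58.1 (R 4.3.3), a scale that understates changes of low genes. The variance prior had an intensity trend (2 residual and 4.12 prior degrees of freedom), and p-values were adjusted by Benjamini-Hochberg over 13147 genes with at least 1 FPKM in 2 or more libraries. Called means an adjusted p under 0.05. The fit was checked on simulated data. Nothing says whether the pools came from separate animals, so p-values measure only the spread between these 4 samples, which may be technical. The 9 genes and all lists were chosen with earlier results of these data known, and the lists came from textbook knowledge. A further list is not reported here. From each list the text names called genes and up to 4 others by highest mean FPKM, and says where a gene was picked otherwise; Cyp2f2, Muc5ac and the marker genes are also named as standards of their cell type. Alternatives were other scalings, filters and pseudocounts, no trend, a replicate block, each library left out and limma-voom on the recovered reads.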

Additional observations from a re-analysis of the deposited data

How the results depend on the processing

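The 9 genes kept their direction under every alternative run, except that Bpifb1 and Lypd2, which have no test, turned to -0.12 and -0.24 without Nrf2 KO 2. Muc5b was not tested with at least 5 FPKM, and all 9 genes were with no filter. None of the tested ones was called under the other scalings, filters, pseudocounts, no trend, limma-voom, the replicate block and an adjusted p under 0.1. With a library left out, a genotype has no replicate, so only effect sizes are given for these genes. The median log2 fold change of the tested ones ran from 0.59 to 1.63 with a library left out, and from 0.99 to 1.16 otherwise.

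Counts over all genes moved more. With a library left out 5 to 171 genes were called higher and 5 to 50 lower, against 10 and 5. Genes called higher numbered 6 with quantile normalization, 6 without the trend, 6 with a pseudocount of 10 and 4 with limma-voom. With no filter on low values 0 were called higher and 1 lower, and with at least 5 FPKM 8 were lower; the causes were not tested. The replicate block called 54 higher and 15 lower, with 0 of the 6 genes. Same-numbered libraries deviated in opposite directions (correlation across genes -0.306), and nothing in the labels pairs them. Crossed pairing, added after the data were seen, called 520 higher and 328 lower of 13147 genes tested, 3 of the 6 genes among them. This pairing takes up the opposite deviations found in these same data, so its calls are no support for a difference. Depth limits Reg3g and Lypd2 most, with at most 2 and 21 reads in a library.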

Other observations

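Genes were ranked, after the data were seen, by the excess of Nrf2 KO 2 over the highest of the other 3 libraries on the log2(FPKM + 1) scale. The first 11 of 21601 were, in order, Retnla, Slc26a4, Chia1, Rnase2a, Apln, Clca1, Chil4, Col14a1, Corin, Igkv7-33 and Ccl11. No theme was tested over them. Retnla, a resistin-like protein of airway epithelium and macrophages, had 62.0 and 4276 FPKM in Nrf2 KO 1 and 2 against 36.0 and 13.6 FPKM in WT 1 and 2. Chia1, the acidic chitinase, had 8.72 and 282 FPKM in Nrf2 KO 1 and 2 against 2.15 and 1.45 FPKM in WT 1 and 2. Rnase2a, a secreted ribonuclease, had 1.87 and 49.6 FPKM in Nrf2 KO 1 and 2 against 0.202 and 0.137 FPKM in WT 1 and 2. Apln, the peptide hormone apelin, had 14.0 and 263 FPKM in Nrf2 KO 1 and 2 against 12.1 and 9.41 FPKM in WT 1 and 2. The chitinase-like Chil4 had 1 and 208 reads in the knockout libraries and 1 and 1 in the wild-type libraries. Col14a1, a collagen, had 1.90 and 47.8 FPKM in Nrf2 KO 1 and 2 against 3.87 and 1.80 FPKM in WT 1 and 2. Corin, a membrane-bound protease, had 3.63 and 43.1 FPKM in Nrf2 KO 1 and 2 against 4.25 and 2.40 FPKM in WT 1 and 2. Igkv7-33, an immunoglobulin light chain segment, had 7 and 98 reads in Nrf2 KO 1 and 2 against 2 and 5 in WT 1 and 2. The eosinophil attractant Ccl11 had 6 and 176 reads in Nrf2 KO 1 and 2 against 1 and 1 in WT 1 and 2.

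Of the 9 secretory airway genes, Scgb3a1 was at rank 21 on this scale, Bpifb1 at 36, Lypd2 at 50, Bpifa1 at 51 and Scgb1a1 at 270. Scgb3a2, Cbr2 and Muc5b were lower in Nrf2 KO 2 than in at least 1 of the other libraries. Ltf, the iron-binding lactoferrin of airway glands and neutrophils, was at rank 20, with 0.771 and 8.42 FPKM in Nrf2 KO 1 and 2 against 0.421 and 0.155 FPKM in WT 1 and 2. These are values of 1 library, and the labels do not say what sets its pool of tumours apart.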
